A study of Mus musculus with 14 samples.

Results

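Genes that mark alveolar type 2 cells were followed by name: the surfactant protein genes Sftpa1, Sftpb, Sftpc and Sftpd, and Abca3, Lamp3, Napsa, Slc34a2 and Nkx2-1. These 9 of the 55291 gene symbols in the deposited count table were taken as known markers of the cell type, and all 9 passed the filter on low counts that left 17933 genes for testing. RNA was measured in frozen lung tumor nodules of C57BL/6 mice that carry the HER2 Exon20YVMA genotype, an insertion in exon 20 of the receptor kinase gene HER2, and this allele was shared by every group, vehicle included. The 14 libraries fell into 5 groups: nodules with acquired resistance to mobocertinib given alone (resistant, n = 3), nodules of mice given mobocertinib with T-DM1 (combination, n = 3), T-DM1 alone (n = 3), mobocertinib alone (n = 3) and vehicle (n = 2). Mobocertinib (TAK-788) blocks the kinase activity of receptors of the EGFR family with exon 20 insertions, and T-DM1 is the anti-HER2 antibody trastuzumab joined to a microtubule poison. Drugs and vehicle were given long term. The promoter that drives the allele, the cell type that expresses it, the age and sex of the mice, and whether each library came from a separate animal were not stated in the labels. The p-values therefore measure only the spread between these samples, which may be technical.

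Alveolar type 2 cells are the cuboidal cells of the alveolus that make, store and recycle surfactant, the lipid and protein film that lowers surface tension at the air surface. They also divide to renew the alveolar lining and are a recognized source of lung adenocarcinoma. Surfactant proteins B and C are small hydrophobic proteins that spread the lipid film, while A and D are collectins that bind microbes. Abca3 pumps phospholipid into lamellar bodies, the organelles in which surfactant is stored, and Lamp3 lies in the membrane of those organelles. Napsa is an aspartic protease that helps to process the surfactant protein B and C precursors, Slc34a2 is a sodium-phosphate cotransporter that takes up phosphate freed from surfactant, and Nkx2-1 is the lung lineage transcription factor that activates the surfactant protein genes.

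The libraries of the vehicle group differed from the rest in transcript length profile. Short messenger RNAs, under 1 kb, took 6.78% to 11.9% of counts in the 12 non-vehicle libraries and 25.7% and 30.9% in the vehicle libraries, and those over 5 kb took 12.6% to 20.1% and then 6.13% and 4.51%. Sftpc, with a longest transcript of 792 bases, belongs to the short class. Leaving it out gave 6.49% to 10.2% in the non-vehicle libraries and 17.8% and 20.8% in the vehicle libraries. Differences from vehicle were also computed with a correction for transcript length and GC content. Where it ended the call of a named gene, the loss is stated, with the corrected value for some of these genes. Library totals were 19344015 to 31287261 counts. Levels are CPM, the share of a library's counts on a common scale, adjusted by trimmed-mean (TMM) factors, differences are log2 fold changes ± SE from edgeR's quasi-likelihood test, and a gene was called when its Benjamini-Hochberg adjusted p over all 17933 genes was below 0.05. The TMM factors were 0.677 and 0.542 in the vehicle libraries and 0.988 to 1.23 in the others. Vehicle CPM therefore lie above the plain share of counts. In bulk tissue, fewer alveolar type 2 cells and less RNA per cell cannot be told apart.

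Sftpc was the one member that was called, and it was lower in all 4 non-vehicle groups. Its level was 5098, 24477 and 2871 CPM in the resistant libraries, 10467, 13328 and 23922 CPM in the combination libraries, 3137, 46306 and 9884 CPM in the T-DM1 libraries and 8829, 22217 and 23214 CPM in the mobocertinib libraries, against 116690 and 185948 CPM in the vehicle libraries. No library of the other groups reached a vehicle library, and the nearest, T-DM1 2, lay 14.8-fold above the lowest library of its own group. Group means were 10815 ± 11883 CPM in resistant, 15905 ± 7088 in combination, 19775 ± 23222 in T-DM1 and 18086 ± 8033 in mobocertinib nodules (SD, n = 3 each), against 151319 ± 48973 in vehicle (SD, n = 2). Relative to vehicle, Sftpc changed by −3.81 ± 1.05 in resistant nodules (adjusted p = 0.0122), −3.25 ± 1.03 in the combination (adjusted p = 0.0279), −2.94 ± 1.02 under T-DM1 (adjusted p = 0.0442) and −3.06 ± 1.03 under mobocertinib (adjusted p = 0.0366) by edgeR. It was also the one member called in the joint edgeR test of any difference among the 5 groups (adjusted p = 0.0291, where 29.4% of all genes were called). The 4 comparisons share the 2 vehicle libraries, so they are not independent of one another.

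**Figure D1:**
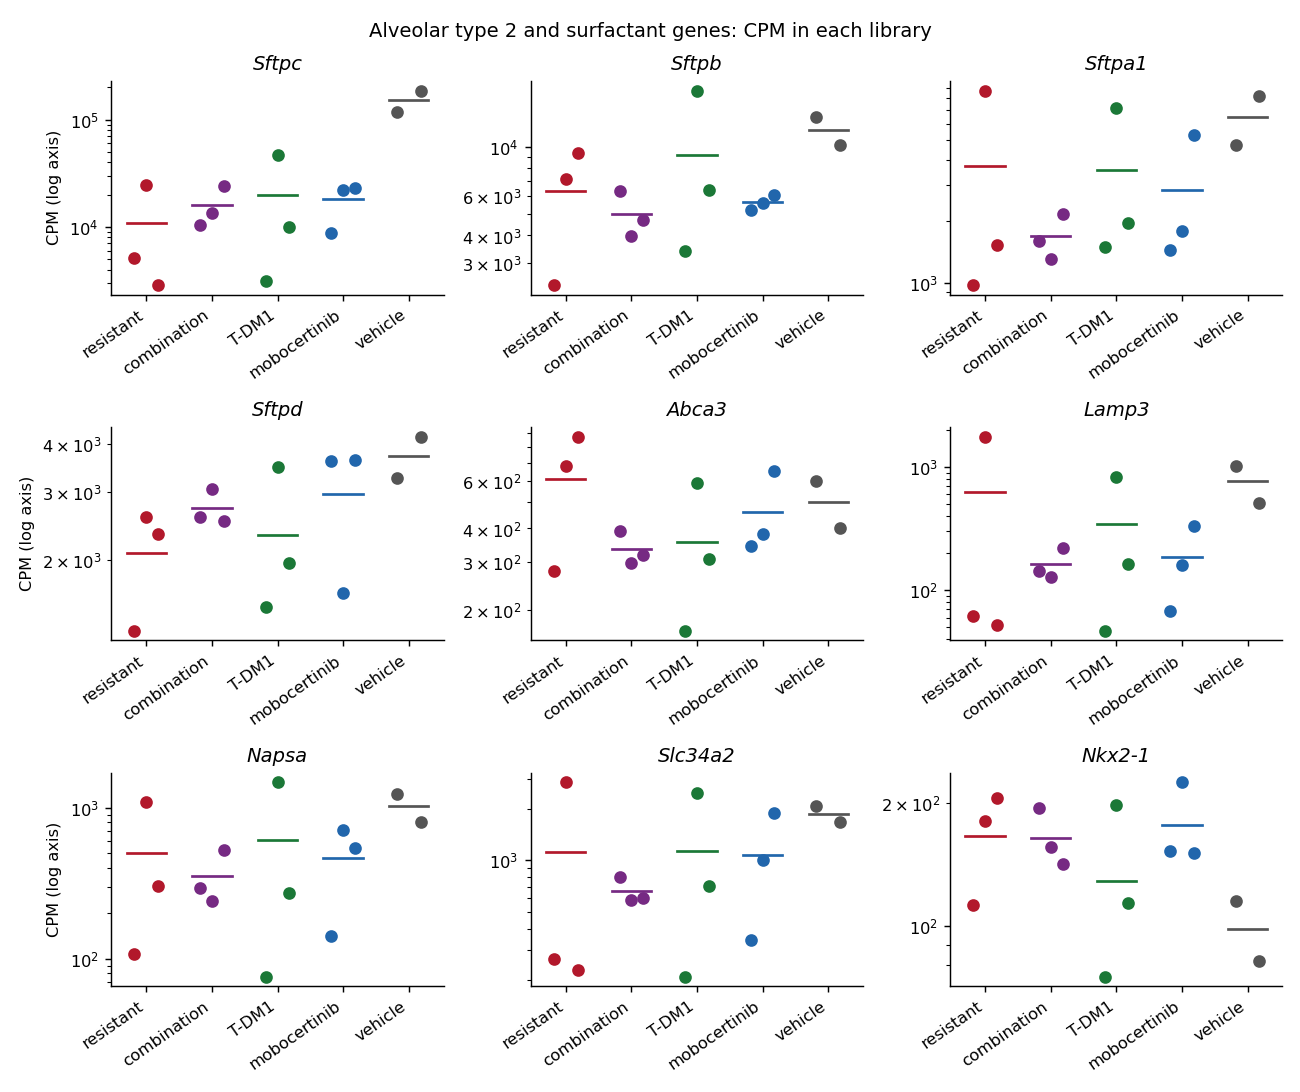
CPM of each of the 9 genes (log axes, one panel a gene) in every library, by group, with points for libraries and lines for group means. Sftpc lies at 2871 to 46306 CPM in the 12 non-vehicle libraries, below both vehicle libraries, while each other gene has at least 1 non-vehicle group whose libraries overlap those of vehicle.

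The calls of Sftpc depended on single libraries and on settings. The resistant call did not pass without vehicle 2 (−3.37, adjusted p = 0.0587), and it was −5.25 (adjusted p = 0.00474) without resistant 2, the resistant library with the most Sftpc. The combination call did not pass without vehicle 2 (−2.74, adjusted p = 0.125), combination 1 (−3.02, 0.0908) or combination 2 (−3.14, 0.0804). The T-DM1 call became −4.54 (adjusted p = 0.00839) without T-DM1 2, and leaving out vehicle 1, vehicle 2, T-DM1 1, T-DM1 3, mobocertinib 2, mobocertinib 3 or any of the combination libraries ended it (−2.37 to −3.20). Leaving out any library of the compared groups ended the mobocertinib call (−2.58 to −3.33). With the correction for transcript length and GC content, Sftpc differed by −2.05 (resistant), −2.11 (combination), −1.88 (T-DM1) and −1.96 (mobocertinib), and was called in none of these by edgeR (adjusted p = 0.156 to 0.208). Without a filter on low counts the call was lost in combination (−3.04, adjusted p = 0.0808), T-DM1 (−2.76, 0.115) and mobocertinib nodules (−2.89, 0.0998). With the mean of the epithelial markers as a term it was lost in combination (−2.55, 0.0679) and T-DM1 nodules (−1.82, 0.224), and the T-DM1 call was also lost without robust estimation (−2.94, 0.0514) and in a fit with vehicle alone (−2.96, 0.0889). DESeq2 and limma-voom called Sftpc lower in all 4 groups.

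On the deposited TPM values, which are scaled for transcript length, Sftpc had 10301, 42429 and 5330 TPM in resistant, 20374, 22593 and 42823 TPM in combination, 5087, 76654 and 18175 TPM in T-DM1 and 12867, 38992 and 44908 TPM in mobocertinib libraries, against 74436 and 82105 TPM in vehicle libraries. Here T-DM1 2 fell between the vehicle libraries, so the T-DM1 and vehicle groups overlapped on this scale. By limma on log2(TPM + 1) the differences of Sftpc were −2.56 (resistant, adjusted p = 0.0497), −1.53 (combination, 0.228), −2.02 (T-DM1, 0.115) and −1.47 (mobocertinib, 0.249). The median over all genes was 1.27, 1.18, 1.17 and 1.11 in the same order of comparisons, against 0.18, 0.08, 0.18 and 0.09 from counts.

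Sftpc also took a larger share of the TPM of the 9 genes in the vehicle libraries. Its longest transcript, of 792 bases, is the shortest of the 9, and the vehicle libraries were rich in short transcripts. The part of that length profile in the shares and ratios below was not tested. Sftpc made up 27.1% to 80.0% of the summed TPM of the 9 genes in the 12 non-vehicle libraries and 89.7% and 92.3% in the vehicle libraries. The TPM ratio of Sftpc to Sftpb was 0.585 to 9.79 in the non-vehicle libraries and 16.8 and 35.3 in the vehicle libraries. Resistant 3, at 0.585, was the one library with more Sftpb than Sftpc. By counts, Sftpc was the most abundant of all genes in T-DM1 2, in mobocertinib 2 and 3 and in both vehicle libraries. All 9 genes together took 1.30%, 5.24% and 1.79% of counts in resistant, 2.48%, 2.48% and 3.96% in combination, 1.07%, 8.30% and 2.40% in T-DM1 and 1.99%, 3.95% and 4.73% in mobocertinib libraries, against 9.69% and 11.5% in vehicle libraries. Without Sftpc, the remaining 8 genes took 0.678% to 3.52% in the non-vehicle libraries and 1.80% and 1.41% in the vehicle libraries, so the groups overlapped. The 95% Wilson interval of the vehicle 2 share was 11.46% to 11.49%, and such intervals cover counting error only.

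**Figure D2:**
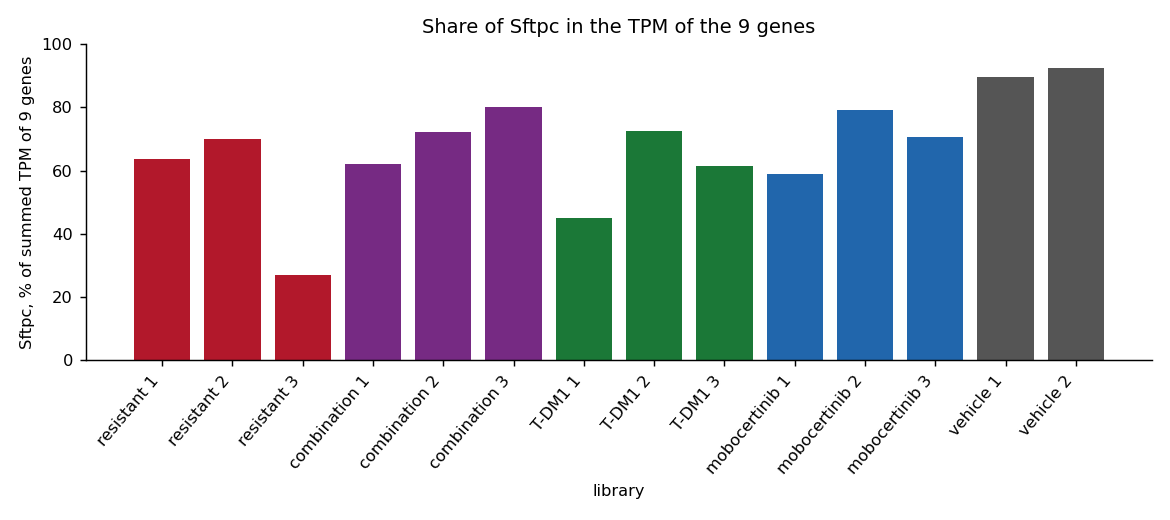
Sftpc as a percentage of the summed TPM of the 9 genes (bars, from 0) in each library, colored by group. Both vehicle libraries are near 90% (89.7% and 92.3%), above the 12 others, and resistant 3 is lowest at 27.1%. The vehicle libraries were also richer than the others in short transcripts, the class of Sftpc.

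The hydrophobic partner of Sftpc, Sftpb, did not pass in any comparison. Its level was 2398, 7182 and 9413 CPM in resistant, 6349, 3993 and 4705 CPM in combination, 3407, 17844 and 6393 CPM in T-DM1 and 5206, 5590 and 6080 CPM in mobocertinib libraries, against 13556 and 10150 CPM in vehicle libraries. T-DM1 2 exceeded both vehicle libraries, and in the other 3 groups every library lay below vehicle in CPM. That separation rested on the TMM factors. As plain percentages of counts, Sftpb was 0.917% and 0.549% in the vehicle libraries. Resistant 3 (0.945%), combination 1 (0.690%) and mobocertinib 3 (0.689%) were above the lower of these, so all 3 groups overlapped vehicle on that scale. Differences from vehicle were −0.90 ± 0.62 (resistant, adjusted p = 0.258), −1.24 ± 0.62 (combination, 0.137), −0.36 ± 0.63 (T-DM1, 0.679) and −1.08 ± 0.62 (mobocertinib, 0.198).

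Neither collectin gene was called. Sftpa1 had 976, 8731 and 1527 CPM in resistant, 1595, 1307 and 2163 CPM in combination, 1502, 7219 and 1967 CPM in T-DM1 and 1441, 1799 and 5283 CPM in mobocertinib libraries, against 4725 and 8238 CPM in vehicle libraries. Resistant 2, T-DM1 2 and mobocertinib 3 reached the vehicle range, and the combination libraries were all below it (−1.94 ± 0.89, adjusted p = 0.109). Sftpd, the steadiest of the 4 surfactant protein genes, had 1312, 2586 and 2340 CPM in resistant, 2585, 3046 and 2519 CPM in combination, 1508, 3485 and 1967 CPM in T-DM1 and 3615, 1639 and 3625 CPM in mobocertinib libraries, against 3252 and 4169 CPM in vehicle libraries. As plain percentages of counts, Sftpd was 0.220% and 0.226% in the vehicle libraries, within the range of 0.159% to 0.411% in the others. Its differences from vehicle were −0.84 ± 0.44 (resistant), −0.45 ± 0.44 (combination), −0.68 ± 0.44 (T-DM1) and −0.33 ± 0.44 (mobocertinib), with adjusted p of 0.139 to 0.589. From TPM they turned positive, at 0.95, 1.35, 0.95 and 1.30, and Sftpd was then called higher in combination and mobocertinib nodules by limma (adjusted p = 0.0156 and 0.0197). The all-gene medians from TPM were 1.27, 1.18, 1.17 and 1.11 in the same order. Sftpd lay above the median in combination and mobocertinib nodules and below it in resistant and T-DM1 nodules.

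The lamellar body genes Abca3 and Lamp3 did not behave alike across libraries. Abca3 had 279, 681 and 877 CPM in resistant, 391, 297 and 319 CPM in combination, 167, 591 and 308 CPM in T-DM1 and 344, 382 and 654 CPM in mobocertinib libraries, against 598 and 402 CPM in vehicle libraries. Resistant 3 had the most Abca3 of all 14 libraries and resistant 2 the next most, above both vehicle libraries. Its differences were 0.29 ± 0.53 (resistant), −0.57 ± 0.52 (combination), −0.49 ± 0.52 (T-DM1) and −0.12 ± 0.52 (mobocertinib), none of them called (adjusted p = 0.409 to 0.879). They were called lower with the length and GC correction in the combination (−1.65, adjusted p = 0.0282) and T-DM1 (−1.51, 0.0428), and called higher from TPM in all 4 groups (1.88 to 2.88). The all-gene medians from TPM were 1.11 to 1.27. Abca3 shares 9.75% of its exon bases with D330041H03Rik, and with the strand setting of the counting not given in the sources used here its level is uncertain.

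Lamp3 had 62.2, 1765 and 52.3 CPM in resistant, 142, 129 and 219 CPM in combination, 47.0, 827 and 162 CPM in T-DM1 and 67.7, 159 and 330 CPM in mobocertinib libraries, against 1018 and 509 CPM in vehicle libraries. Resistant 2 was above both vehicle libraries and T-DM1 2 between them, while the other 10 were lower than either. Differences were −0.29 ± 1.35 (resistant), −2.22 ± 1.35 (combination), −1.14 ± 1.34 (T-DM1) and −2.04 ± 1.35 (mobocertinib), with adjusted p of 0.217 to 0.880. Lamp3 is also a marker of mature dendritic cells, whose list of 8 other markers summed to 187 to 432 CPM in the non-vehicle libraries and 484 and 1107 CPM in the vehicle libraries. None of these 8 was at 0 in any library, and 2, 2, 1 and 3 of them were called lower than vehicle in resistant, combination, T-DM1 and mobocertinib nodules, with 1, Fscn1, called higher under T-DM1. Among all genes, 19%, 17.4%, 14.9% and 16.1% were called lower, so outside mobocertinib nodules these counts were near the background. The part of dendritic cells in the level of Lamp3 was not tested.

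Napsa and Slc34a2 also spread widely within groups. Napsa had 107, 1096 and 304 CPM in resistant, 294, 241 and 521 CPM in combination, 76.1, 1472 and 273 CPM in T-DM1 and 141, 709 and 543 CPM in mobocertinib libraries, against 1236 and 806 CPM in vehicle libraries. Slc34a2 had 264, 2854 and 228 CPM in resistant, 799, 587 and 599 CPM in combination, 210, 2473 and 713 CPM in T-DM1 and 343, 1001 and 1880 CPM in mobocertinib libraries, against 2063 and 1670 CPM in vehicle libraries. For both genes resistant 2 and T-DM1 2 were the high libraries of their groups, and T-DM1 1 was the lowest of all 14. Differences of Napsa from vehicle were −0.75 ± 1.07 to −1.54 ± 1.07 and those of Slc34a2 −0.72 ± 1.07 to −1.50 ± 1.07, with the smallest sizes under T-DM1 and the largest in the combination, and none was called (adjusted p = 0.279 to 0.630). Napsa shares 18.9% of its exon bases with Gm15396, so its level is uncertain too.

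Nkx2-1, the transcription factor of the group, was the one member whose difference from vehicle was positive in all 4 comparisons, without passing in any, although under T-DM1 it was −0.06 (adjusted p = 0.909) without T-DM1 2. Its level was 113, 180 and 206 CPM in resistant, 194, 156 and 141 CPM in combination, 75.2, 197 and 114 CPM in T-DM1 and 153, 224 and 151 CPM in mobocertinib libraries, against 115 and 81.8 CPM in vehicle libraries. All combination and mobocertinib libraries were above vehicle, while resistant 1, T-DM1 1 and T-DM1 3 were not above the higher vehicle library. Differences were 0.76 ± 0.39 (resistant, adjusted p = 0.137), 0.73 ± 0.39 (combination, 0.160), 0.39 ± 0.39 (T-DM1, 0.459) and 0.84 ± 0.39 (mobocertinib, 0.117). From TPM, Nkx2-1 was called higher in all 4, by 2.50, 2.43, 1.90 and 2.43 beside all-gene medians of 1.27, 1.18, 1.17 and 1.11.

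Counted together, 1 of the 9 members, Sftpc, was called against vehicle in each comparison, where edgeR called 41% of all genes in resistant, 35% in combination, 31.7% in T-DM1 and 32.9% in mobocertinib nodules. Lower calls, the direction of Sftpc, made up 19%, 17.4%, 14.9% and 16.1% of all genes, and higher calls, of which the members had 0, made up 22%, 17.6%, 16.7% and 16.8%. The median difference of the 9 members was −0.79 in resistant, −1.50 in combination, −0.72 in T-DM1 and −1.08 in mobocertinib nodules, beside all-gene medians of 0.18, 0.08, 0.18 and 0.09. Single libraries moved these medians: the resistant one was −0.32, −2.32 and −0.42 without resistant 1, 2 and 3, and the T-DM1 one was −0.17, −1.90 and −0.48 without T-DM1 1, 2 and 3. The mobocertinib median was −0.71 without mobocertinib 1. By limma-voom the medians were −1.41 in resistant and −1.20 in T-DM1 nodules, and with the epithelial term the T-DM1 median was −0.40. Of the 9, 8 had a negative difference in combination, T-DM1 and mobocertinib nodules and 7 in resistant nodules, but from TPM the negative ones were 3 in combination nodules (Sftpc, Lamp3 and Sftpa1) and 2 in each other group (Sftpc and Lamp3). The TPM medians of the members were 0.22 in resistant, 0.25 in combination, 0.33 in T-DM1 and 0.57 in mobocertinib nodules. They lay below the all-gene TPM medians of 1.27, 1.18, 1.17 and 1.11. The libraries of the 2 groups did not overlap for 3 of the 9 genes in resistant, 9 in combination, 1 in T-DM1 and 5 in mobocertinib nodules, where this held for 54.4%, 63.1%, 58.2% and 59.4% of all genes. These counts are in CPM and depend on the TMM factors.

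**Figure D3:**
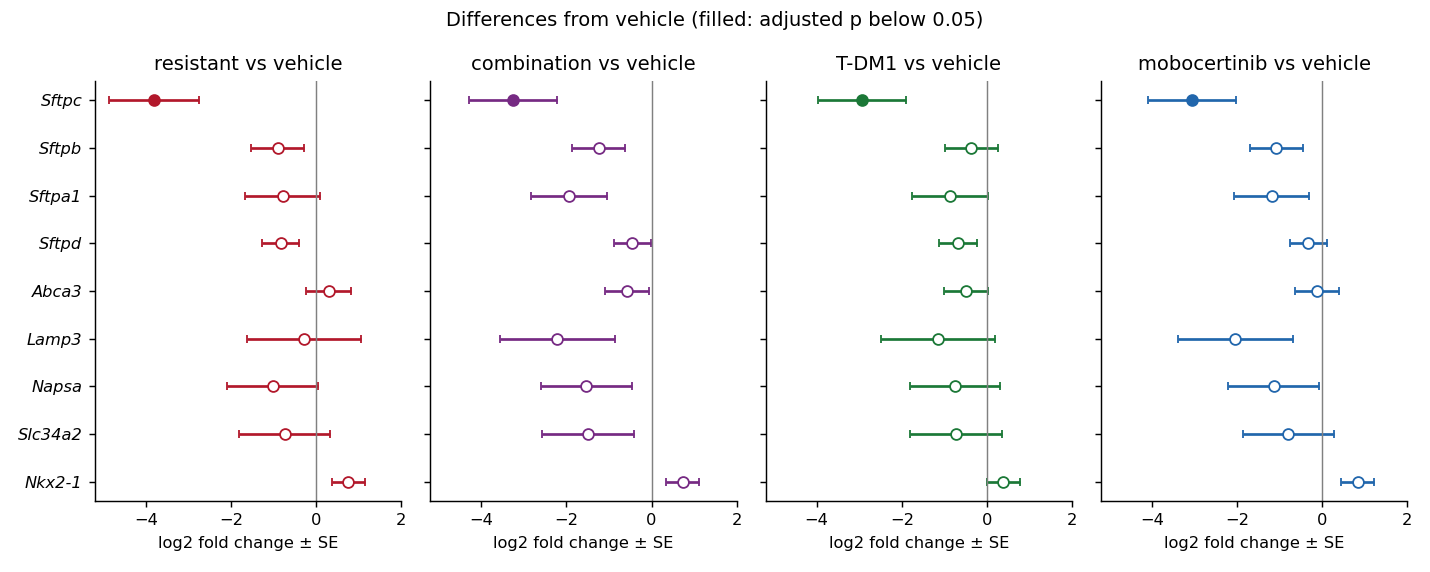
Log2 fold change ± SE from edgeR of the 9 genes in each non-vehicle group relative to vehicle, with filled points for adjusted p below 0.05. Sftpc is the one filled point in each panel, at −3.81, −3.25, −2.94 and −3.06 from left to right, and Nkx2-1 lies to the right of 0 in all 4.

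The combination libraries were close to one another for these genes and the resistant and T-DM1 libraries were not. The SD of log2 CPM of Lamp3 was 0.41 in combination and 1.14 in mobocertinib nodules, but 2.86 in resistant and 2.07 in T-DM1 nodules. For Slc34a2 it was 0.25 and 1.24, but 2.05 and 1.78 in the same groups, and for Napsa 0.58 and 1.25, but 1.68 and 2.14 (n = 3 each, differences in spread not tested). When the combination was fitted with vehicle alone, so that only these 5 libraries set the spread, 7 members were called by edgeR, where that fit called 38.9% of all genes, and their log2 fold changes were near those of the fit over all groups. Lower were Sftpc (−3.21, adjusted p = 0.00699), Lamp3 (−2.18, 0.00691), Slc34a2 (−1.46, 0.00861), Sftpa1 (−1.90, 0.0118), Napsa (−1.50, 0.0265) and Sftpb (−1.21, 0.0399), and higher was Nkx2-1 (0.77, 0.0481). Resistant 2 also had weight. In the fit without it, which called 40.2% of all genes and 19% lower, Lamp3 (−3.74, adjusted p = 0.0211), Slc34a2 (−2.93, 0.0315) and Sftpa1 (−2.38, 0.0362) were called lower in resistant nodules beside Sftpc.

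Between the drug groups no member was called. The combination differed from T-DM1 by −1.08 ± 1.23 for Lamp3, −1.08 ± 0.81 for Sftpa1 and −0.88 ± 0.57 for Sftpb (adjusted p = 1, 0.993 and 0.989), and by −0.31 ± 0.90 for Sftpc. These signs rested on T-DM1 2: 7 of the 9 were negative (median −0.77), but 1 without that library (median 0.64), and 4 by limma-voom (0.11) and from TPM (0.13). The combination differed from mobocertinib by −0.75 ± 0.81 for Sftpa1, −0.70 ± 0.98 for Slc34a2 and −0.19 ± 0.90 for Sftpc (adjusted p = 1 each). All 9 differences were negative there, with a median of −0.19 beside −0.01 over all genes, but 5 were without mobocertinib 3 (median −0.03) and 6 with the epithelial term (−0.14) or from TPM (−0.10), while the median was −0.58 without mobocertinib 1, −0.29 without mobocertinib 2, −0.28 without combination 1 and −0.47 without combination 3. Resistant nodules differed from mobocertinib nodules by 1.75 ± 1.25 for Lamp3, 0.41 ± 0.47 for Abca3 and −0.74 ± 0.91 for Sftpc (adjusted p = 0.675, 0.788 and 0.802), and 6 of the 9 differences were positive. Without resistant 2, 2 were positive (median −1.18, against 0.11), and 2 were by limma-voom (−0.10). These comparisons called 0%, 0% and 0.00558% of all genes, and at an unadjusted p below 0.05 edgeR had 915 genes in combination against T-DM1 and 262 in combination against mobocertinib, none of them a member. DESeq2 called 69 and 1 genes there and limma-voom 0 and 0. Libraries of the groups overlapped for every member, while 16.2%, 6.7% and 10.1% of all genes did not overlap.

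The members also gave no call in the joint test of any difference among the 4 non-vehicle groups (adjusted p = 0.736 to 0.969, where 0.0279% of all genes were called). A contrast of contrasts (the combination less each single drug, with vehicle added back) asks whether both drugs together differ from the sum of each alone. It was 2.75 ± 1.36 for Sftpc (adjusted p = 0.192) and −0.49 ± 0.51 for Nkx2-1 (adjusted p = 0.548), with 0 members called where 12.2% of all genes were. Without T-DM1 2 it was 4.35 for Sftpc (adjusted p = 0.0395), and from TPM it was −1.90 for Nkx2-1 (adjusted p = 0.0183). The all-gene median of this contrast from TPM was −1.11, and 51.2% of genes had an unadjusted p below 0.05 by limma. Over the fits that left out one library, edgeR called 409 to 3222 genes in it.

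Within groups, the members differed widely in how steady they were. Lamp3 had a pooled within-group SD of 1.78 on the log2 scale, above that of 97.5% of all tested genes, followed by Napsa at 1.45 (94.6%), Slc34a2 at 1.41 (94.0%), Sftpc at 1.29 (91.3%) and Sftpa1 at 1.11 (85.5%). Sftpb at 0.78, Abca3 at 0.66, Sftpd at 0.51 and Nkx2-1 at 0.45 were nearer to the all-gene median of 0.52. Over the 12 non-vehicle libraries the highest level was 37.5-fold the lowest for Lamp3, 19.3-fold for Napsa and 16.1-fold for Sftpc, but 2.98-fold for Nkx2-1 and 2.76-fold for Sftpd. T-DM1 1 was the lowest of these libraries for Abca3, Lamp3, Napsa, Slc34a2 and Nkx2-1.

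Several members moved together from library to library. Over the 12 non-vehicle libraries, 16 of the 36 pairs of members passed by both Pearson's r and Spearman's rho, each tested with 100000 permutations and Benjamini-Hochberg adjustment over the 36 pairs. Lamp3 and Slc34a2 were the closest pair (r = 0.95, permutation adjusted p = 0.00054; rho = 0.94, adjusted p = 0.00108), and r was 0.95 without the 2 libraries farthest from the median of Lamp3. Sftpa1 with Lamp3 had r = 0.92 (0.76 without 2 libraries), Sftpc with Slc34a2 0.89 (0.84), and both Sftpa1 and Napsa with Slc34a2 0.88 (0.76 and 0.81). These 5 genes, Sftpa1, Sftpc, Lamp3, Napsa and Slc34a2, gave r of 0.72 to 0.95 among themselves. Without resistant 2 and T-DM1 2, Sftpa1 with Sftpc fell from 0.72 to 0.57 and Sftpa1 with Napsa from 0.81 to 0.62. Sftpc with Napsa rose from 0.84 to 0.95 without resistant 3 and T-DM1 2. The points of a pair share their library, its scaling factor and its group, and r after centring on group means was 0.98 for Lamp3 with Slc34a2.

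Sftpb, Abca3 and Nkx2-1 gave r of 0.63 to 0.75 among themselves. After centring on group means, r was 0.95 for Sftpb with Abca3, 0.91 for Sftpb with Nkx2-1 and 0.80 for Abca3 with Nkx2-1. Sftpb with Abca3 gave r = 0.72 (permutation adjusted p = 0.0215) and 0.88 without the 2 libraries farthest from the median of Sftpb, and Abca3 with Nkx2-1 gave 0.75 (0.0152) but 0.51 without 2 libraries. Napsa was tied to 7 of the other 8 genes, and Sftpd to none of them (r = 0.44 to 0.56). Nkx2-1 passed with Abca3 and Napsa but not with the surfactant protein genes. Among these its r was highest with Sftpb, at 0.63 (permutation adjusted p = 0.0653), and lowest with Sftpa1, at 0.33 (0.301). In resistant 3, Abca3 and Sftpb were the highest of the resistant libraries while Sftpc, Lamp3 and Slc34a2 were the lowest.

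**Figure D4:**
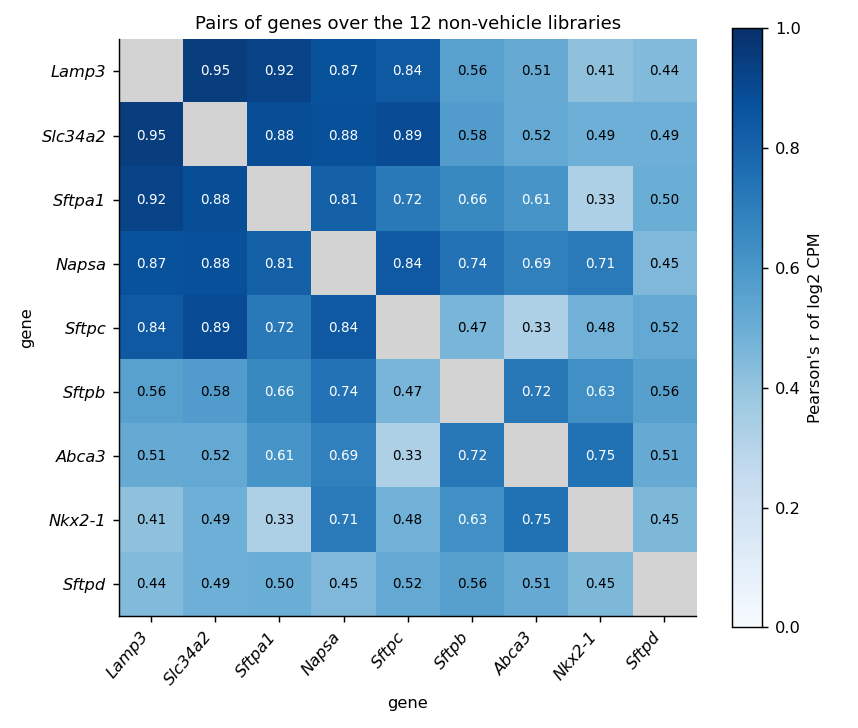
Pearson's r of log2 CPM for each pair of the 9 genes over the 12 non-vehicle libraries. The upper left block of Lamp3, Slc34a2, Sftpa1, Napsa and Sftpc has r of 0.72 to 0.95, and the row of Sftpd stays at 0.44 to 0.56.

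For members that moved together and for Nkx2-1, the bases just before the gene's start were read, since Nkx2-1 protein binds DNA at sites with the core letters CAAG. RefSeq promoter entries on GRCm38.p6, the assembly of the mm10 build, matched 6 of the 9 members, Abca3, Lamp3, Nkx2-1, Sftpa1, Sftpb and Slc34a2, and did not include Napsa, Sftpc and Sftpd. Each window holds up to 250 bases before the RefSeq start, ended where the first annotated exon begins, and is printed on the gene's own strand with CAAG in capitals wherever it stands on either strand (read CTTG on the other). The windows of the closest pair and their nearest partner, Sftpa1, and that of Nkx2-1 are as follows.
Lamp3 (chr16:19706376-19706615, minus strand): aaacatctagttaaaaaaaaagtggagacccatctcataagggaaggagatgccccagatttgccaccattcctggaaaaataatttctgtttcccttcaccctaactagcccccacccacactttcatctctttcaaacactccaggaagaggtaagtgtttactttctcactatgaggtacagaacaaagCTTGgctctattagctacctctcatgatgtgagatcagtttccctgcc
Slc34a2 (chr5:53049103-53049351, plus strand): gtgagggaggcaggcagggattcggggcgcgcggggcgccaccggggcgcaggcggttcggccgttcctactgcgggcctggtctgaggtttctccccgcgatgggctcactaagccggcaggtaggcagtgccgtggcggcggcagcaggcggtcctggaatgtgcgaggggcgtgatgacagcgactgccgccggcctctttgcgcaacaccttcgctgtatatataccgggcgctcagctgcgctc
Sftpa1 (chr14:41131538-41131781, plus strand): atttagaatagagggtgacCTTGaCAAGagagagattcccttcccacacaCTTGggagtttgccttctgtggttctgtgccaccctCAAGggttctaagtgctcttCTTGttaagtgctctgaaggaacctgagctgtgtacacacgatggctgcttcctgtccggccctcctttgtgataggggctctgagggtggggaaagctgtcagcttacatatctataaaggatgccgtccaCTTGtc
Nkx2-1 (chr12:56536909-56537158, minus strand): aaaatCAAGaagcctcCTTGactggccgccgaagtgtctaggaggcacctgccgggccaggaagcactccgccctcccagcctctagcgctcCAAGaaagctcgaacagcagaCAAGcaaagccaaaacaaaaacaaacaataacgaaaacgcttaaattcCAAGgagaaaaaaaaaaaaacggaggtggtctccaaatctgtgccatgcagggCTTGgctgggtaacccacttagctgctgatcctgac
Sftpa1 and Nkx2-1 hold 6 matches each, Lamp3 holds 1 and Slc34a2 holds 0, and the windows of Sftpb and Abca3, not printed, hold 3 and 2. Among the 250-base windows of 32851 RefSeq promoters, 86.6% hold at least 1 match, the median is 2, and 7.68% hold 5 or more. A match is a description of the letters only. The window of Slc34a2 lies inside the gene's annotated span, whose first exon starts further upstream. On mm10, with GENCODE M21, the members lie on chromosome 14 (Sftpa1 at chr14:41131782-41136452, Sftpd at chr14:41172214-41185149, Sftpc at chr14:70520949-70524081), 6 (Sftpb at chr6:72304610-72314371), 17 (Abca3 at chr17:24351950-24410201), 16 (Lamp3 at chr16:19653378-19706375), 7 (Napsa at chr7:44572380-44586862), 5 (Slc34a2 at chr5:53038081-53071664) and 12 (Nkx2-1 at chr12:56531958-56536908).

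Other genes followed the members closely as well. The likeness measure was Pearson's r with the members' mean log2 level over all 14 libraries, among 12109 genes, given as a description. The 10 most like were Fpr1 (0.96), a receptor for formyl peptides, Olr1 (0.95), a scavenger receptor, Lpcat1 (0.94), the enzyme that remodels surfactant phosphatidylcholine, Brd7 (0.94), Lrp2 (0.94), Hkdc1 (0.94), Gsap (0.93), Fgf1 (0.93), Lgi3 (0.93) and Dram1 (0.93). Over the 12 non-vehicle libraries these values were 0.90 to 0.97. Lpcat1 reached 84.7 to 1130 CPM, with its lowest level in T-DM1 1, the library lowest for 5 of the members.

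A list of 18 other alveolar type 2 genes had lower calls against vehicle and no higher ones: 3 lower in resistant, 7 in combination, 2 in T-DM1 and 3 in mobocertinib nodules, with medians of −1.05, −1.95, −1.05 and −1.58. Lower calls among all genes were 19%, 17.4%, 14.9% and 16.1%, so the share called in resistant, T-DM1 and mobocertinib nodules was near the background. From TPM the list had 1 lower call in resistant nodules and 0 in the others, and 1 or 2 higher calls in each. Ctsh, the cathepsin that also processes surfactant proteins, was lower by log2 fold changes of −2.08 ± 0.65 in resistant (adjusted p = 0.0225), −2.90 ± 0.66 in combination (0.00553), −2.55 ± 0.66 in T-DM1 (0.0117) and −2.58 ± 0.66 in mobocertinib nodules (0.0105) by edgeR, and from TPM it was called in none of the 4. Chil1, a chitinase-like protein, was lower in resistant (−3.98 ± 0.91) and combination nodules (−3.23 ± 0.89), and S100g, a calcium-binding protein, was lower in resistant, combination and T-DM1 nodules (−2.53 ± 0.76, −2.75 ± 0.76 and −2.72 ± 0.76), though in none with the length and GC correction (−0.97, −1.35 and −1.37).

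The genes that make surfactant lipid had calls in both directions outside T-DM1 nodules. Of 11, 3 were called higher and 2 lower in resistant, 2 and 2 in combination, 2 and 0 in T-DM1 and 4 and 2 in mobocertinib nodules, with medians of 0.23, 0.22, 0.42 and 0.11. Among all genes, 22%, 17.6%, 16.7% and 16.8% were called higher and 19%, 17.4%, 14.9% and 16.1% lower. The counts in resistant and combination nodules were near these shares. The medians of the 11 were −0.39, −0.60, −0.19 and −0.34 with the length and GC correction, and from TPM 9 were called higher and 0 lower in each group. Their TPM medians were 1.80, 2.07, 2.05 and 1.73, beside all-gene TPM medians of 1.27, 1.18, 1.17 and 1.11. Gpam, which starts glycerolipid synthesis, rose in all 4 (2.40 ± 0.44, 2.27 ± 0.44, 2.35 ± 0.44 and 2.81 ± 0.45, in the order resistant, combination, T-DM1, mobocertinib). Elovl1, a fatty acid elongase, was lower in resistant (−2.36 ± 0.70), combination (−2.26 ± 0.70) and mobocertinib nodules (−2.37 ± 0.70), the first 2 not called with the length and GC correction (−1.78 and −2.00), and Cept1, a choline and ethanolamine phosphotransferase, in the same 3 groups (−0.84 ± 0.30, −1.05 ± 0.30 and −1.15 ± 0.30).

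Of 8 genes of surfactant secretion and clearance, 2 were called higher and 4 lower in resistant, 0 and 3 in combination, 0 and 1 in T-DM1 and 1 and 1 in mobocertinib nodules, with medians of −1.06, −0.25, −0.51 and −0.04. Among all genes, 22%, 17.6%, 16.7% and 16.8% were called higher and 19%, 17.4%, 14.9% and 16.1% lower. The T-DM1 and mobocertinib counts were not above these shares. Csf2, the growth factor GM-CSF that alveolar macrophages need to clear surfactant, had 0.618, 3.78 and 0.360 CPM in resistant, 0.528, 0.354 and 0 CPM in combination, 0.339, 2.23 and 1.89 CPM in T-DM1 and 0.399, 0.923 and 0.782 CPM in mobocertinib libraries, against 33.1 and 31.3 CPM in vehicle libraries, and was called lower in all 4, though with the length and GC correction not in resistant (−2.95) and T-DM1 nodules (−3.07). Its receptor subunit Csf2rb was lower in resistant (−1.83 ± 0.49) and combination nodules (−1.38 ± 0.49), and the lipid exporter Abcg1 in resistant nodules (−1.12 ± 0.34).

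In a list of 12 transcription factors drawn up for the alveolar type 2 lineage, 5 were called higher and 1 lower in resistant, 4 and 3 in combination, 4 and 1 in T-DM1 and 3 and 1 in mobocertinib nodules (medians 0.08, 0.37, 0.20 and 0.18). Whether alveolar type 2 cells were their source was not tested. With the length and GC correction the counts were 2 and 1, 2 and 4, 3 and 1, and 2 and 3 in the same order. The all-gene shares were 22%, 17.6%, 16.7% and 16.8% higher and 19%, 17.4%, 14.9% and 16.1% lower. Tead1, a partner of YAP, rose by 3.08 ± 0.62 to 3.59 ± 0.63 over the 4 comparisons and Nfib by 0.99 ± 0.31 to 1.73 ± 0.32, but Nfib was at −0.05 to 0.18 and called in none with the length and GC correction. Id2, an inhibitor of helix-loop-helix factors, was lower in all 4 (−1.74 ± 0.34, −2.41 ± 0.35, −1.41 ± 0.34 and −2.50 ± 0.35 in the same order). From TPM, Id2 was called in none and its sign turned in resistant (0.36) and T-DM1 nodules (0.57). Between the non-vehicle groups none of the genes in these 4 lists was called.

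Markers of alveolar macrophages, which take up surfactant, moved with the 9 members. The mean level of their 11 markers, as log2 CPM minus each gene's mean over all libraries, was −1.04, 0.78 and −1.0 in resistant, −0.56, −0.38 and −0.09 in combination, −1.29, 1.14 and −0.74 in T-DM1 and −0.51, −0.02 and 0.38 in mobocertinib libraries, against 1.5 and 1.83 in vehicle libraries. The same measure for the 9 members was −1.29, 1.10 and −0.60, then −0.22, −0.44 and −0.06, then −1.50, 1.26 and −0.37, then −0.67, 0.04 and 0.56, against 1.18 and 1.01 in vehicle libraries. Resistant 2, T-DM1 2 and both vehicle libraries were high by both measures. The summed macrophage markers ranged from 516 to 3692 CPM in the non-vehicle libraries, against 9173 and 10002 CPM in the vehicle libraries, none of the 11 was at 0, and 5, 6, 5 and 4 of them were called lower in resistant, combination, T-DM1 and mobocertinib nodules (1, 1, 2 and 0 from TPM). Lower calls by edgeR among all genes were 19%, 17.4%, 14.9% and 16.1% in the same order. A part of the macrophages in the members' levels was not tested.

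General epithelial markers did not follow the members. The mean level of 12 such genes was −0.84, −0.76 and 0.66 in resistant, 0.40, 0.06 and 0.12 in combination, 0.32, 0.45 and 0.51 in T-DM1 and 0.09, 0.05 and −0.54 in mobocertinib libraries, against −0.13 and −0.42 in vehicle libraries. T-DM1 1 and T-DM1 2, the lowest and the highest library for the 9 members, were both above the mean for these epithelial markers. Of the 12, 3, 2, 3 and 2 were called higher than vehicle in resistant, combination, T-DM1 and mobocertinib nodules and 0 lower, shares near the 22%, 17.6%, 16.7% and 16.8% of all genes called higher.

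**Figure D5:**
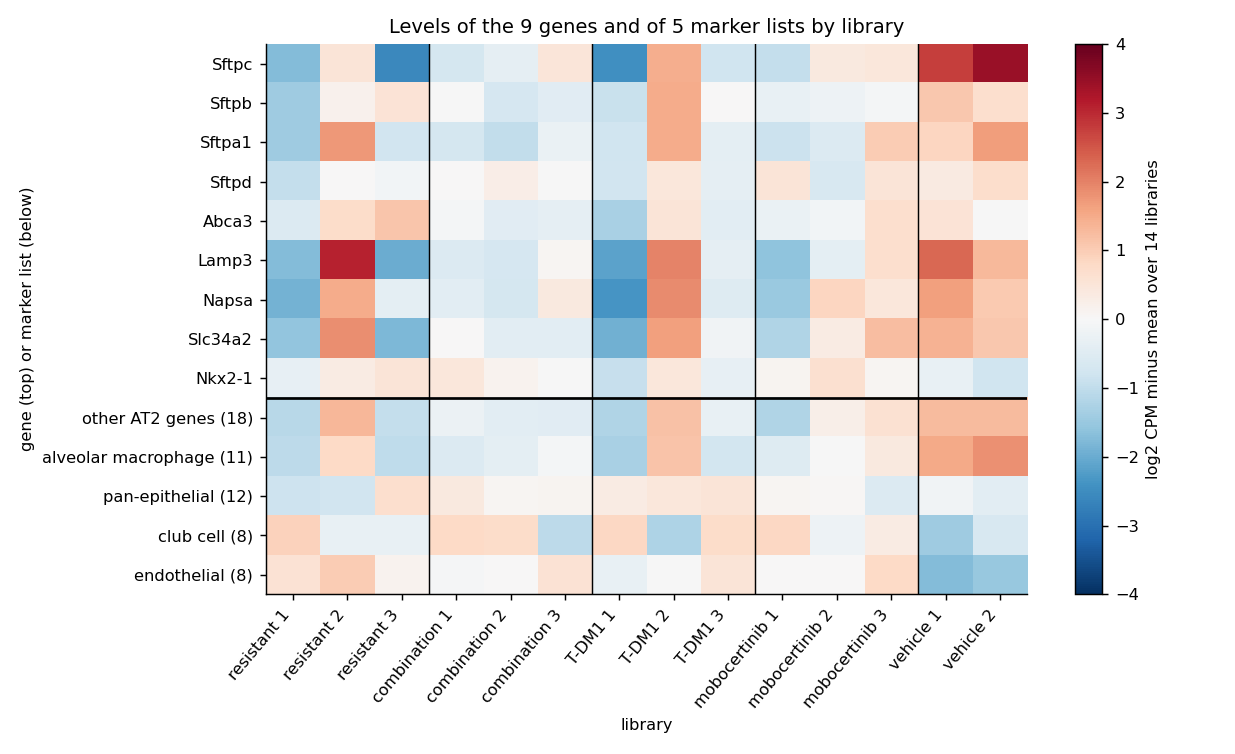
Levels by library (log2 CPM minus the mean over 14 libraries, color scale) of the 9 genes above the line and of the mean of 5 marker lists below it, with the number of genes in brackets. The alveolar macrophage row is high in resistant 2 (0.78), T-DM1 2 (1.14) and both vehicle libraries (1.5 and 1.83), where Lamp3 and Slc34a2 are high, and the pan-epithelial row is not.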

How the data were processed

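RNA was measured in 14 lung tumor libraries. STAR, RSEM and the mm10 build are named in the submitters' processing notes, with no role or version; for annotation and strand the setting was not given in the sources used here. The authors deposited whole-number counts for 55291 gene symbols and, separately, TPM values for 47606 genes; replicates were not pooled. Library totals were 19344015 to 31287261 counts, and shares carry 95% Wilson intervals.

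The 9 members and all other gene lists were chosen with earlier results of these data known. Groups came from the labels. Counts were filtered with filterByExpr (17933 genes kept), scaled by TMM and fitted in one robust quasi-likelihood model over the 5 groups with edgeR 4.0.16 in R 4.3.3, so that all groups share one estimate of the spread on 9 residual degrees of freedom. Contrasts were each drug group against vehicle, combination against each single drug, resistant against mobocertinib, and the difference of differences; p-values were adjusted by the Benjamini-Hochberg method over all genes, and the SE is the size of the log2 fold change over the square root of F. Alternatives were other scalings, filters, DESeq2 1.42.0, limma-voom and limma-trend (3.58.1) on log2(TPM + 1) or log2(TPM + 0.1), a length and GC offset (17563 genes with both values), an epithelial content term, fits of the compared groups alone, and leaving out each library. The scripts were tested on simulated data. Pairs were tested by permutation with scipy 1.17.1.

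Named were all 9 members in every comparison. From each other list, up to 3 genes called in any comparison were named by smallest p over the 5 groups. The 10 genes most like the members were ranked by Pearson's r among genes with a mean log2 CPM of at least 1, without predicted genes and pseudogenes. Where counts of 5 or fewer were named in full outside this rule, the genes were chosen after their values were seen. Positions come from GENCODE M21.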

Additional observations from a re-analysis of the deposited data

How the results depend on the processing

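In combination against mobocertinib, combination against T-DM1, resistant against mobocertinib and the joint test of the 4 non-vehicle groups, 0 members were called under every alternative run. Over all genes, log2(TPM + 0.1) called 10607 in resistant, 10197 in combination, 10384 in T-DM1 and 9930 in mobocertinib nodules against vehicle. The model reported called 7357, 6278, 5676 and 5905. Against vehicle, where 1 member was called each time, the number of members called was 3 (resistant), 3 (combination), 2 (T-DM1) and 3 (mobocertinib) from log2(TPM + 1) and likewise from log2(TPM + 0.1), and 2 (resistant) and 2 (mobocertinib) from TPM without a filter. It was 0 in combination, T-DM1 and mobocertinib nodules without a filter on counts, 0 in resistant and mobocertinib nodules with the length and GC offset, 0 in T-DM1 nodules without robust estimation, 0 in combination and T-DM1 nodules with an epithelial content term (Sftpc −2.55, adjusted p = 0.0679, and −1.82, 0.224), 0 for T-DM1 fitted with vehicle alone, 7 for the combination fitted with vehicle alone, and 2 for the combination by DESeq2, which added Sftpa1. The joint test of 5 groups called 0 without a filter, 0 with the length and GC offset, and 2 from TPM with either pseudocount, against 1. The difference of differences called 1, Nkx2-1, in all 3 TPM fits, against 0. Over all genes, log2(TPM + 0.1) called 9514 in the joint test of 5 groups, against 5277 in the model reported. In the difference of differences it called 7495, against 2194.

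Leaving out one library gave 0 to 4 members called in resistant, 0 to 2 in combination, 0 to 1 in T-DM1 and 0 to 1 in mobocertinib nodules, 0 to 1 for the difference of differences and 0 to 1 for the joint test of 5 groups. The 4 in resistant nodules arose without resistant 2, and the 2 in combination nodules also without resistant 2. For Sftpd and Abca3, differences that were negative and not called in the model reported were positive and called from TPM. These were 1.35 in combination and 1.30 in mobocertinib for Sftpd, with either pseudocount. For Abca3 they were 2.01 and 2.10 in combination, 1.88 and 1.96 in T-DM1, and 2.32, 2.40 and, with no filter, 2.32 in mobocertinib. The all-gene medians from log2(TPM + 1) were 1.18 in combination, 1.17 in T-DM1 and 1.11 in mobocertinib nodules. The cause was not tested. Of 2421 member values under alternatives, 2128 kept their direction and side of the threshold, and 198 changed sign without being called on either side. Over all genes, calls ranged from 3344 to 10607 in resistant (7357 in the model reported), 4761 to 10197 in combination (6278), 3745 to 10384 in T-DM1 (5676) and 4502 to 9930 in mobocertinib nodules (5905), and 962 to 7495 for the difference of differences (2194), over settings that kept all compared libraries. Leaving out one library gave 4602 to 7349, 3630 to 6931, 2750 to 6413, 3182 to 6547 and 409 to 3222 in the same order. Of the named genes outside the members that were called, the length and GC offset kept 24 of 37 in resistant, 22 of 31 in combination, 19 of 28 in T-DM1 and 21 of 30 in mobocertinib nodules, and TPM kept 23, 19, 20 and 16. No paired analysis was possible because the labels give the groups no shared replicate numbers. With 2 vehicle libraries that differ in transcript length profile from all others, the 4 comparisons with vehicle share that limit.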

Other observations

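Other cell types of the lung were followed by marker lists, as log2 fold changes from vehicle by edgeR. Among all genes, 22%, 17.6%, 16.7% and 16.8% were called higher and 19%, 17.4%, 14.9% and 16.1% lower in resistant, combination, T-DM1 and mobocertinib nodules. Of 8 club cell genes, 2 were called higher in resistant, 4 in combination, 3 in T-DM1 and 3 in mobocertinib nodules and 0 lower, with medians of 1.26, 1.59, 1.08 and 1.42; the resistant count is near the background. Cyp2f2, a cytochrome P450 of club cells, rose by 4.53 ± 0.82 in resistant, 5.30 ± 0.86 in combination, 3.88 ± 0.79 in T-DM1 and 4.98 ± 0.84 in mobocertinib nodules, and Aldh1a1, a retinaldehyde dehydrogenase, by 2.58 ± 0.71, 2.52 ± 0.70, 2.29 ± 0.69 and 2.84 ± 0.71. Of 12 alveolar type 1 genes, 3, 2, 3 and 3 were called higher and 1, 0, 0 and 0 lower. Cav1, the caveolin of flat alveolar and endothelial cells, rose by 3.04 ± 0.45, 3.61 ± 0.46, 2.66 ± 0.44 and 3.76 ± 0.47, while the water channel Aqp5 was lower in resistant nodules (−1.72 ± 0.51). Of 6 ciliated cell genes, the dynein gene Dnah5 was the one called, higher in resistant (5.11 ± 1.47), T-DM1 (4.41 ± 1.42) and mobocertinib nodules (3.88 ± 1.39), and it was called in none of them with the length and GC correction.

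The mucosal peptide genes Tff1 and Tff2, from a list of 13 gastric genes of which 11 were tested, were lower in resistant (−3.10 ± 1.11 and −5.65 ± 1.82), combination (−4.10 ± 1.16 and −6.23 ± 1.87) and mobocertinib nodules (−4.39 ± 1.18 and −5.27 ± 1.79), though neither was called with the length and GC correction. That list had 0 higher and 2 lower calls in resistant, 0 and 3 in combination, 1 and 1 in T-DM1 and 0 and 2 in mobocertinib nodules. Of 10 genes of transitional epithelium, 2 were called lower in resistant and 3 in mobocertinib nodules, and 1 was called higher in T-DM1 nodules. Of 8 endothelial genes, 6 were called higher in each of the 4 groups, and Cdh5, the cadherin of endothelial junctions, rose in all 4 (4.19 ± 0.63, 3.28 ± 0.60, 3.34 ± 0.60 and 3.46 ± 0.60). The medians of the 8 were 1.92, 1.70, 1.67 and 1.74. With the length and GC correction, 6, 4, 4 and 5 of them were called higher, with medians of 1.71, 1.21, 1.02 and 1.28. Of 8 fibroblast genes, 4, 1, 1 and 1 were called higher, with the collagen genes Col1a1 (3.23 ± 0.96) and Col1a2 (2.57 ± 0.91) called in resistant nodules; with the length and GC correction 0 of the 8 were called in any group. Among 6 leukocyte genes, Cd52 and Fcer1g were lower in all 4 groups, at −1.54 ± 0.55 to −2.51 ± 0.56 and −2.42 ± 0.53 to −3.13 ± 0.54; with that correction Fcer1g was called in resistant nodules alone (−1.58) and Cd52 in none.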
